A study of Homo sapiens with 3 samples.

Results

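The 10 genes described here are the listed effectors and direct targets of the Hippo pathway: the coactivators YAP1 and WWTR1 (which encodes TAZ), the DNA-binding factors TEAD1, TEAD2, TEAD3 and TEAD4, and the target genes CCN1, CCN2, ANKRD1 and AMOTL2. They were chosen by name, not by a rule on their values, though earlier results of these data were known. Each matched 1 of the 62754 genes in the deposited tables. The cells were primitive neural progenitors (pNPCs), which divide and can form neural cell types, made from the established human embryonic stem cell line H1. All 3 replicates are wild-type and form 1 group in the labels, with no other condition, cultured with the ROCK inhibitor Y-27632 (10 µM), the TGF-beta receptor inhibitor SB431542 (2 µM), the GSK3 inhibitor CHIR99021 (3 µM), FGF2 (20 ng/ml) and LIF (10 ng/ml). All 3 libraries shared that medium, so no value here shows what the ROCK inhibitor did.

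In the Hippo pathway, the kinases MST and LATS phosphorylate YAP and TAZ and keep them out of the nucleus. When the kinases are inactive, YAP and TAZ enter the nucleus, bind TEAD proteins and raise the transcription of genes such as CCN1, CCN2, ANKRD1 and AMOTL2. YAP and TAZ respond to cell density, cell shape and tension of the actin cytoskeleton, in which ROCK takes part, and YAP with TEAD2 is known for its role in the growth of neural progenitors. RNA levels do not show where YAP protein lies or how it is phosphorylated.

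Expected counts per library ranged from 30038114 to 38400092. Replicate 1 stood apart: a chi-square of counts gave 82.4 and 82.5 per degree of freedom for its pairs, and 19.4 for replicates 2 and 3. Its shortfall grew with transcript length. Among genes with an effective length (the length over which a read can start) of 4000 bases or more, 75.0% were lowest in replicate 1, against 22.6% of genes under 2000 bases and 41.1% of all 17046 genes that passed the low-count filter. The summed TPM of 12 neuron markers was 1174, 737 and 666 in replicates 1, 2 and 3. Its largest parts were TUBB3 at 478, 324 and 323 and NEFM at 485, 241 and 176. By counts scaled for library size, 9 of the 12 were highest in replicate 1, against 40.8% of all genes. The other 3 were highest in replicate 3, against 33.7%. The summed TPM of 13 mesenchyme markers was 747, 1555 and 1106. Each of these neuron and mesenchyme markers reached 1 TPM in all libraries. Of 10 neural progenitor markers 8 did so, among them VIM at 1912 ± 194 TPM (mean ± SD, n = 3) and SOX2 at 69.2 ± 26.2. SOX2 had 97.8, 46.3 and 63.4 TPM in replicates 1, 2 and 3, while PAX6, another gene of that list, stayed at 0.13, 0.81 and 0.38. By counts scaled for library size, 5 of the 9 progenitor markers that passed the filter were highest in replicate 1, against 40.8% of all genes. Only 1 was lowest there. The part of these cell types and of this library in the differences described next was not tested, and in bulk RNA fewer cells of a type and less RNA per cell cannot be told apart.

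Of the 10 genes, 9 were detected, that is, reached at least 1 TPM (transcripts scaled to a fixed total, a level per length) in all 3 libraries, where 23.0% of all genes did. ANKRD1 was the exception. By mean TPM (mean ± SD, n = 3) the order was TEAD2 at 108 ± 5.15, YAP1 at 82.4 ± 20.5, CCN1 at 43.0 ± 17.7, TEAD3 at 31.6 ± 3.61, AMOTL2 at 21.9 ± 6.11, WWTR1 at 21.4 ± 6.73, TEAD4 at 18.3 ± 2.56, CCN2 at 17.9 ± 7.07, TEAD1 at 17.8 ± 7.51 and ANKRD1 at 0.35 ± 0.36. Among detected genes TEAD2 lay at percentile 90.6 and YAP1 at 87.4, while TEAD1, TEAD4 and CCN2 lay near the middle, at 51.0, 51.7 and 51.1.

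Neighbours in this order were compared as differences of log2(TPM + 1) within a library. Of the 9 neighbouring pairs, 4 had the same sign in 3 of 3 libraries and 3 differed by more than the SD of the difference. Those 3 were YAP1 over CCN1 by 0.99 ± 0.36, TEAD3 over AMOTL2 by 0.54 ± 0.25, and TEAD1 over ANKRD1 by 3.74 ± 0.49. TEAD2 exceeded YAP1 in 3 of 3 libraries, by 0.42 ± 0.45, which is within its own spread. From AMOTL2 through WWTR1, TEAD4 and CCN2 to TEAD1 no neighbours differed beyond their spread. The exact two-sided sign-flip permutation p was 0.25 at best, the smallest that n = 3 allows (Benjamini-Hochberg adjusted 0.562), so no pair could reach a threshold of 0.05.

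**Figure D1:**
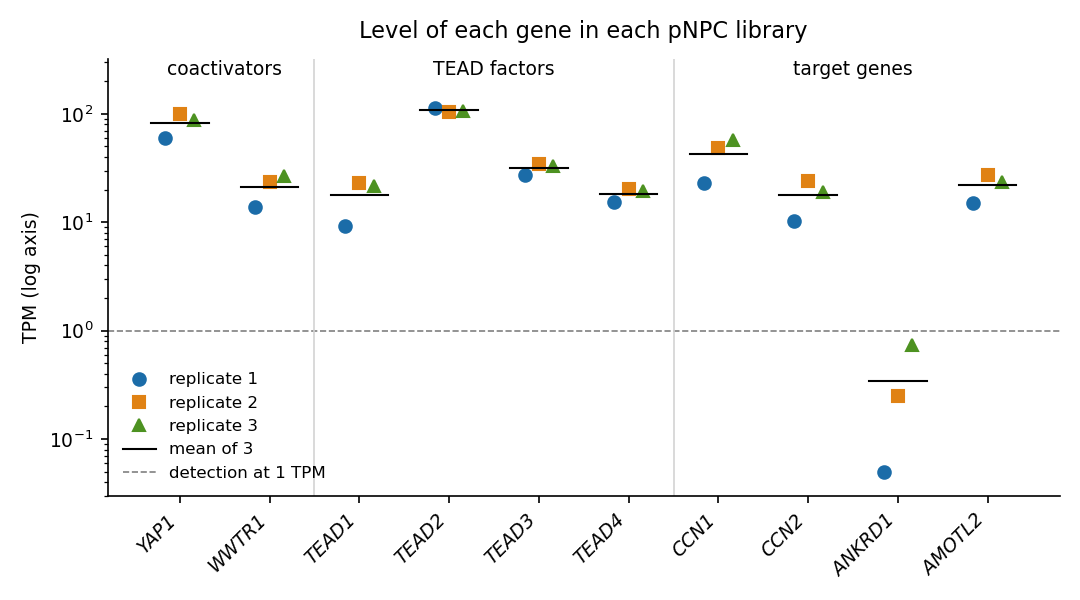
TPM (log axis) of the 10 genes in the 3 pNPC libraries, with the mean of the 3 as a bar and the detection level of 1 TPM as a dashed line. TEAD2 is the highest gene and varies least, replicate 1 is the lowest library for each of the other 9, and ANKRD1 lies under 1 TPM throughout.

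YAP1 (ENSG00000137693.14, chromosome 11, 102110447 to 102233424, GRCh38), the coactivator after which the pathway's output is often named, had 59.7, 99.6 and 87.8 TPM in replicates 1, 2 and 3, from 7091, 10072 and 6853 expected counts. WWTR1 (ENSG00000018408.15, chromosome 3, 149517235 to 149724788), its paralog, had 13.8, 23.7 and 26.6 TPM from 1670, 2846 and 2343 expected counts. Both were lowest in replicate 1, and their highest libraries differed, replicate 2 for YAP1 and replicate 3 for WWTR1. YAP1 made up 81.2%, 80.8% and 76.8% of their summed TPM, a mean of 79.6 ± 2.46% (SD, n = 3), and was 4.33, 4.196 and 3.30 times as abundant as WWTR1 per length. The share was thus high in every library, and replicate 3 lay below the other 2. By counts it was 80.9% (Wilson 95% interval 80.1 to 81.7), 78.0% (77.2 to 78.7) and 74.5% (73.6 to 75.4), intervals that cover counting error only and do not overlap. WWTR1 shares exons with the opposite-strand gene WWTR1-AS1, at 0.75, 1.31 and 1.36 TPM, and no source used here says whether the counting used strand, so reads from such pairs cannot be told apart.

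The TEAD genes encode the factors that bring YAP and TAZ to DNA. TEAD2 (ENSG00000074219.14, chromosome 19, 49340595 to 49362416), the paralog best known from early embryos and neural progenitors, had 114, 104 and 107 TPM in replicates 1, 2 and 3, from 5518, 5017 and 4026 expected counts. Its coefficient of variation was 4.75%, and it was the one gene of the 10 that was highest in replicate 1. TEAD3 (ENSG00000007866.22, chromosome 6, 35473597 to 35497079), best known from placenta, had 27.5, 34.4 and 32.9 TPM. TEAD4 (ENSG00000197905.10, chromosome 12, 2959397 to 3040676), a factor of trophoblast formation, had 15.4, 20.2 and 19.3 TPM from 521, 674 and 496 expected counts. Both were lowest in replicate 1 by a small margin, with coefficients of variation of 11.4% and 14.0%. TEAD1 (ENSG00000187079.20, chromosome 11, 12674421 to 12944737), a factor of heart and muscle among other tissues, had 9.22, 22.9 and 21.4 TPM, so that replicate 1 lay far under replicates 2 and 3, which were alike. TEAD2 overlaps exons of the opposite-strand gene CD37, at 3.25, 7.74 and 10.9 TPM.

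TEAD2 took most of the TEAD transcripts in every library. Its share of the summed TPM of the 4 genes was 68.6%, 57.3% and 59.3%, a mean of 61.7 ± 6.05% (SD, n = 3). TEAD3 followed with 16.6%, 18.9% and 18.2% (17.9 ± 1.22%), and TEAD4 had 9.26%, 11.1% and 10.7% (10.4 ± 0.97%). TEAD1 had 5.55%, 12.6% and 11.8% (10.0 ± 3.88%), so it was below TEAD4 in replicate 1 and above it in the other 2 libraries. The sum itself was steady, at 166, 182 and 181 TPM. It was 2.26 times the summed TPM of YAP1 and WWTR1 in replicate 1, and 1.47 and 1.58 times in replicates 2 and 3.

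The order below TEAD2 depended on the scale. By expected counts, which favour long transcripts, TEAD1 was second, with 20.8% (Wilson 95% interval 20.0 to 21.6), 34.7% (33.8 to 35.5) and 34.9% (34.0 to 35.9) of TEAD counts in the 3 libraries. TEAD2 had 55.1% (54.1 to 56.0), 40.4% (39.5 to 41.3) and 41.5% (40.6 to 42.5), and remained first in each library. TEAD1 has much the longest transcripts of the 4, with effective lengths of 8914, 7231 and 7808 bases in replicates 1, 2 and 3, against 1905, 1854 and 1857 for TEAD2. The low TEAD1 share in replicate 1 thus stood together with the shortfall of long transcripts in that library. On the TPM scale it also stood with the longer effective length of TEAD1 there, by which TPM divides. The part of each was not tested. TEAD3 kept 18.9%, 19.5% and 18.4% of counts, which is near its share of TPM.

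**Figure D2:**
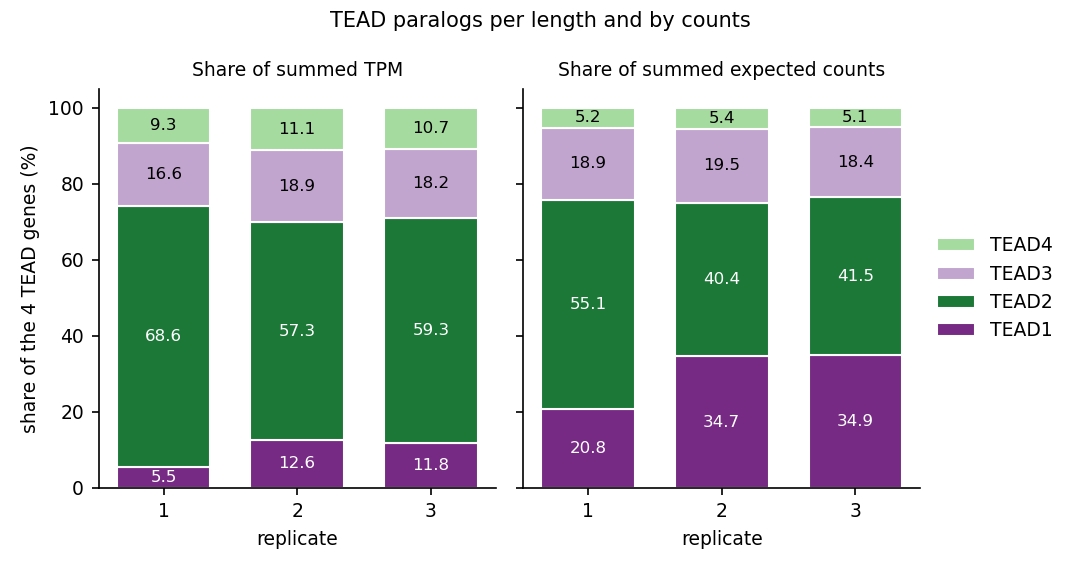
Share of each TEAD gene (percent) in the summed TPM of the 4 genes (left) and in their summed expected counts (right), by replicate. TEAD2 is the largest part of each bar, and TEAD1 is smaller in replicate 1 on both scales, at 5.55% of TPM and 20.8% of counts.

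The 4 targets differ in what they encode. CCN1 and CCN2 are secreted matricellular proteins that bind integrins and growth factors, ANKRD1 is an ankyrin-repeat protein first known from heart muscle, and AMOTL2 is an angiomotin that binds YAP and holds it in the cytoplasm. RefSeq promoter windows (GRCh38.p14) were matched for 7 of the 10 genes, all but CCN1, TEAD1 and TEAD4. The 250 bases before the annotated start are shown for the targets in that table, because TEAD proteins bind their motif in promoters of this kind. The strand is minus for each, letters run 5′ to 3′, and capitals mark GGAATG or its reverse complement CATTCC, the core of the TEAD motif, searched on both strands.
CCN2 (chr6:131951373-131951622): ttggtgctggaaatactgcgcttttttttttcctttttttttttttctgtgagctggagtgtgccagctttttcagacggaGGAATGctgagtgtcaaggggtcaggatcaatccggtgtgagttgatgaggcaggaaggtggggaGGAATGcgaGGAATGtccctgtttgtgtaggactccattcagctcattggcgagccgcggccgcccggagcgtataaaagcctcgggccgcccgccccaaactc
ANKRD1 (chr10:90921088-90921337): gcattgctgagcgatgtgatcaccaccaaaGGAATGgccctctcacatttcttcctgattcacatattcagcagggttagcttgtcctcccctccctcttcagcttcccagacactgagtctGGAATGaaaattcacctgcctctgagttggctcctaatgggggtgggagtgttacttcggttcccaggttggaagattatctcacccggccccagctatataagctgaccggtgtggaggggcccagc
AMOTL2, inner start (chr3:134374448-134374697): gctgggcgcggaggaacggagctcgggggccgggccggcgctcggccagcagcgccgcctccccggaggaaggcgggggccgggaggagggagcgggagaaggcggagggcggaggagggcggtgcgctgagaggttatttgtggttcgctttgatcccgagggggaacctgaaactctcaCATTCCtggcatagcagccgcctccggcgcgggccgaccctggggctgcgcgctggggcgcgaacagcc

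The CCN2 window held 3 matches, which began 169, 104 and 95 bases before the start, ANKRD1 held 2, at 220 and 128 bases, and the inner AMOTL2 start held 1, at 69 bases. The window of the outer AMOTL2 start (chr3:134375418-134375667) held 0, and YAP1 held 1, at 162 bases. Of 35116 promoter windows of this length in the table, 11.9% held at least 1 match, 0.940% at least 2 and 0.0826% at least 3. A match is a run of letters, not a bound site. The AP-1 motif TGANTCA, whose reverse complement reads the same, matched once in ANKRD1, beginning 195 bases before the start and apart from both TEAD matches, and in 6.57% of all windows. The CArG box, the site of the serum response factor SRF, matched in none of the windows of these 7 genes and in 1.16% of all windows.

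CCN1 (ENSG00000142871.18, chromosome 1, 85580761 to 85583950) had 23.1, 48.65 and 57.2 TPM in replicates 1, 2 and 3, from 1114, 2521 and 2301 expected counts. Replicate 1 was well under the other 2 libraries. On the log2 CPM scale, which adjusts counts for library size by TMM but not for length, replicate 1 lay -1.12 from the mean of the others, the farthest of the 9 genes that passed the filter. CCN2 (ENSG00000118523.6, chromosome 6, 131948176 to 131951372) had 10.3, 24.2 and 19.2 TPM from 554, 1313 and 809 expected counts, and replicate 1 lay -0.91 from the mean of the others. AMOTL2 (ENSG00000114019.15, chromosome 3, 134355345 to 134375417) had 15.2, 27.1 and 23.4 TPM from 1523, 3014 and 1874 expected counts, with replicate 1 at -0.65. In all 3 genes replicate 1 was the lowest library. CCN1 was highest in replicate 3, as 33.7% of all genes were, whereas CCN2 and AMOTL2 were highest in replicate 2, as 25.5% were, so the libraries were not in the same order throughout. CCN1 was 2.25, 2.01 and 2.98 times as abundant as CCN2 per length.

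ANKRD1 (ENSG00000148677.7, chromosome 10, 90912096 to 90921087) was nearly silent beside the other targets. It had 2, 10 and 23 expected counts, or 0.05, 0.25 and 0.74 TPM, in replicates 1, 2 and 3. A level of 3 counts corresponds to 0.0751, 0.0751 and 0.0968 TPM there, so replicate 1 lay under that floor. Scaled for library size, replicate 3 exceeded replicate 1 13.0-fold (95% interval of the counts 3.21 to 114), replicate 3 exceeded replicate 2 2.89-fold (1.32 to 6.80), and replicate 2 was 4.50-fold replicate 1 (0.959 to 42.2). These intervals cover counting error alone, and the last includes no difference. ANKRD1 did not pass the low-count filter.

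All 4 targets were thus lowest in replicate 1, but so were 41.1% of all genes tested, and 8 of the 9 tested members, TEAD2 being the exception (40.8% of all genes were highest there). With the length trend described next removed, 7 of the 9 were lowest in replicate 1, against 36.1% of all genes. Where each target stood among genes of its length differed. CCN1 and CCN2 have effective lengths of 1960 and 2095 bases on average, a range in which replicate 1 was not low in general, since the median difference of genes near 1925 bases was 0.07 and near 2188 bases 0.04. AMOTL2 averaged 4063 bases and TEAD1 7985, and the medians near 4286 and 7399 bases were -0.26 and -0.61. With a smooth trend on length removed in each library, the difference of replicate 1 was -1.16 for CCN1, -0.92 for CCN2 and -0.39 for AMOTL2. It was -0.31 for WWTR1, -0.23 for TEAD1, and turned to 0.03 for YAP1 from -0.24. The low values of CCN1 and CCN2 in replicate 1 were therefore as large without the length trend, and those of TEAD1, WWTR1, AMOTL2 and YAP1 were smaller. TEAD3 went from -0.15 to -0.07, and TEAD4 the other way, from -0.16 to -0.29.

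**Figure D3:**
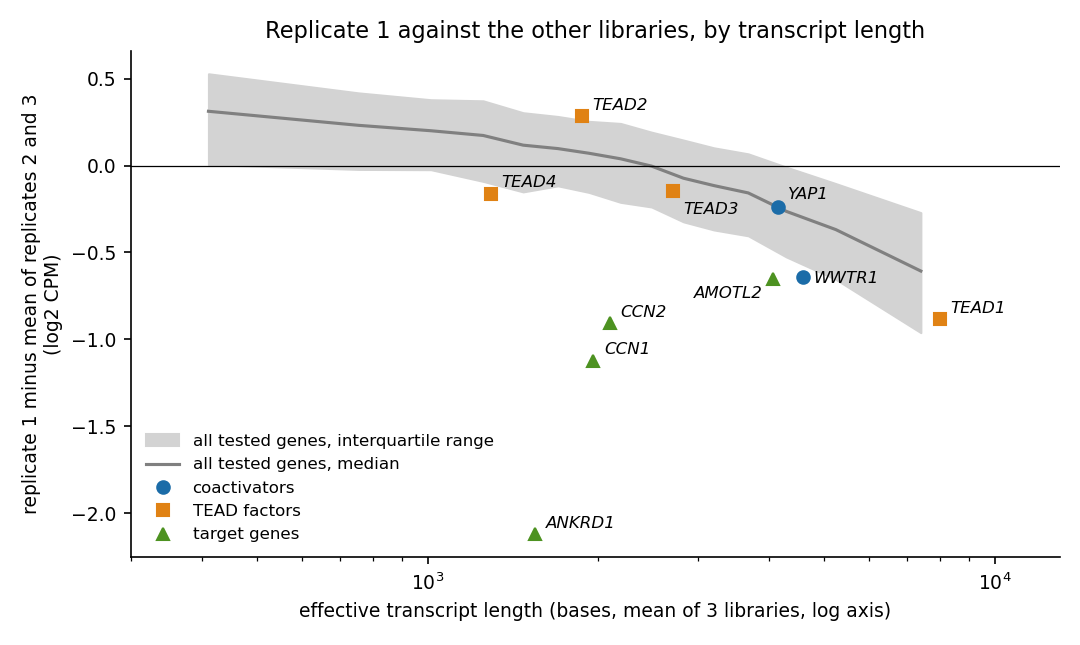
Difference of replicate 1 from the mean of replicates 2 and 3 (log2 CPM) against effective transcript length (bases, log axis) for the 10 genes, with the median (line) and interquartile range (band) of all tested genes in bins of length. CCN1 at -1.12 and CCN2 at -0.91 lie well under the band, YAP1 at -0.24 lies near its median line, AMOTL2 at -0.65 lies below its edge, and the ANKRD1 point rests on 2, 10 and 23 counts.

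Whether the replicates differed by more than genes of like abundance did was asked with a negative binomial fit across all 17046 genes in edgeR (residual deviance at the trended dispersion). Of the 9 tested members 0 were called at a Benjamini-Hochberg adjusted p under 0.05, where 1.59% of all genes (271) were. With the DESeq2 size factors and dispersion trend it was also 0. At an unadjusted p under 0.05 there were 3 members, CCN1, CCN2 and TEAD1, against 7.35% of all genes. The adjusted p in edgeR was 0.130 for CCN1, 0.477 for CCN2, 0.508 for TEAD1 and 0.856 for AMOTL2, and 1.00 for the other 5. Their log2 CPM spanned 1.22 for CCN1, 1.09 for CCN2, 0.89 for TEAD1 and 0.83 for AMOTL2, and 13.0% of all genes spanned 1 or more. With the length trend removed, CCN1 was called (adjusted p = 0.00830 in edgeR), beside 1.74% of all genes, while CCN2 had an adjusted p of 0.200. Whether the replicates came from separate cultures is not stated in the labels, so a p here speaks of the spread among the 3 libraries alone, and that spread may be technical.

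The kinase core, which acts upstream of YAP and TAZ, was expressed throughout, with 17 of 17 genes detected. The highest were MAP4K4, a kinase that acts on LATS beside MST, at 77.0, 123 and 123 TPM in replicates 1, 2 and 3, the LATS cofactor MOB1A at 40.8, 48.6 and 48.4, the kinase TAOK2 at 42.8, 45.1 and 46.5, and the MST scaffold SAV1 at 19.2, 22.0 and 22.1. The lowest were WWC1, which encodes KIBRA, at 11.1 ± 0.95 TPM (mean ± SD, n = 3), and the kinase LATS2, itself a YAP target, at 5.11, 9.93 and 9.04 TPM. The related kinase LATS1, chosen after its values had been looked at, had 5.55, 12.1 and 16.04 TPM. None of the 17 was called, against 1.59% of all genes, and 3 had an unadjusted p under 0.05 in edgeR, against 7.35%. In each test that left out 1 library 0 were called. Replicate 1 was the lowest library for 14 of the 17, against 41.1% of all genes, and for 10 with the length trend removed, against 36.1%. In that library the median member lay -0.24 from the mean of the others, against -0.01 for all genes. With the length trend removed that median was -0.10.

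Among the partners of YAP and TEAD, 7 of 10 genes were detected. YWHAZ, a 14-3-3 protein that retains phosphorylated YAP, stood at 512 ± 12.4 TPM, the angiomotins AMOTL1 and AMOT at 53.0 ± 18.5 and 19.8 ± 7.47, and VGLL4, a cofactor that competes with YAP for TEAD, at 33.2, 37.2 and 36.0. VGLL3 was near the detection level at 0.60, 1.54 and 1.00 TPM. VGLL1 and VGLL2 received no reads, and 3 counts would have been at most 0.331 and 0.0866 TPM. Of the 4 VGLL genes, VGLL4 was therefore the one detected. PTPN14, a phosphatase that binds YAP and is also a YAP target, was the 1 gene called of the 8 tested (adjusted p = 0.0333 in edgeR), against 1.59% of all genes. It had 4.52, 14.1 and 10.9 TPM. It was called in none of the tests that left out 1 library, had an adjusted p of 0.0508 without the low-count filter, and had an adjusted p of 0.526 with the length trend removed. The other angiomotins also had their lowest value in replicate 1 and their highest in replicate 2, with AMOTL1 at 32.8, 68.9 and 57.3 TPM and AMOT at 11.8, 26.6 and 20.9, but neither was called (adjusted p = 0.678 and 0.370 in edgeR). With the length trend removed, their differences of replicate 1 went from -0.77 to -0.09 (AMOTL1) and from -0.87 to -0.30 (AMOT), and the median of the tested partners from -0.68 to 0.02.

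Of 18 other genes known as YAP and TAZ targets, all were detected and 1, PTPN14, was called, against 1.59% of all genes. The highest were the stress gene GADD45A at 46.0, 59.7 and 52.5 TPM, the ARF regulator ASAP1 at 27.1, 44.8 and 54.4, the matrix gene CCDC80 at 29.7, 54.3 and 28.97, and ARHGEF17 at 24.3, 40.1 and 39.2. The lowest were TGFB2, a ligand of the TGF-beta family, at 1.24, 3.19 and 1.37 TPM and the forkhead factor FOXF2 at 3.88, 2.57 and 1.26. In replicate 1, 12 of the 18 had their lowest log2 CPM, against 41.1% of all genes, and 4 their highest, against 40.8%. The median member lay -0.55 from the mean of the other libraries there, or -0.29 with the length trend removed. FOXF2, highest in replicate 1, lay opposite to CCN1 but was not called (adjusted p = 0.459 in edgeR). CCDC80 was not called either (0.256), but was with the length trend removed (0.0453) and without replicate 1 (0.00207). Mesenchyme markers lay at -0.74 and -0.62 by the same measures, with 11 of 13 lowest in replicate 1, against 41.1% of all genes. Of these markers 4 were called, against 1.59% of all genes, the matrix genes COL1A1, COL6A3 and FBN1 and the receptor gene PDGFRA. Without replicate 2 the call of PDGFRA alone was left, without replicate 1 neither PDGFRA nor FBN1 was called (adjusted p = 1.00 for each in edgeR), and with the length trend removed FBN1 was not (0.0913). Calls were also gained. Without replicate 1, COL3A1 and LUM were called (adjusted p = 9.88e-06 and 0.00241 in edgeR). With the length trend removed LUM, PRRX1 and COL3A1 were called (0.000607, 0.00591 and 0.00594). The part of such cells in the values of the targets was not tested.

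The remaining genes of the CCN family were low. CCN3, also known as NOV, had 2.91, 4.0 and 2.20 TPM, while CCN4 had 0.07, 0.16 and 0.27, CCN5 0.03, 0 and 0.04, and CCN6 0.11, 0.11 and 0 TPM. Of the 6 CCN genes, CCN1 and CCN2 were therefore the ones with levels above 10 TPM in every library.

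The kinases ROCK1 and ROCK2, which the inhibitor in the medium targets, were chosen with their values in view. ROCK1 had 16.7, 20.8 and 21.5 TPM and ROCK2 18.7, 32.6 and 27.6 TPM in replicates 1, 2 and 3. Neither was called for spread (adjusted p = 1.00 for each in edgeR). Replicate 1 lay -0.30 (ROCK1) and -0.45 (ROCK2) from the other libraries in log2 CPM, and with the length trend removed these long genes turned to 0.38 and 0.13. The actin-severing protein CFL1 stood at 1343 ± 165 TPM (mean ± SD, n = 3) and the myosin light chain MYL12A at 322 ± 54.6, while MYL9, a myosin light chain of contractile cells, had 10.6, 21.6 and 8.90 TPM.

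SRF and its coactivators MRTFA and MRTFB, which share CCN1 and CCN2 as targets with YAP, were listed with their other targets, and 17 of the 17 genes were detected. The cytoplasmic actins ACTG1 and ACTB stood at 3352 ± 283 and 2799 ± 191 TPM and the actin cross-linker FLNA at 559 ± 88.7, while FILIP1L and the smooth muscle gene CNN1 were lowest at 7.0 ± 1.14 and 2.45 ± 0.85. TPM2, a tropomyosin, was the 1 gene called (adjusted p = 0.0468 in edgeR), against 1.59% of all genes. It had 117, 356 and 297 TPM, and it was not called without any 1 of the libraries. With the length trend removed TPM2 was called (adjusted p = 4.94e-05 in edgeR), as was the tropomyosin TPM1 (0.00986). Without replicate 1, TPM1 and MYL9 were called (0.00276 and 0.00498). Replicate 1 of TPM2 lay -1.28 from the others, beside -1.12 for CCN1. Of 8 vascular and smooth muscle markers 3 were detected, the highest being ACTA2 at 17.2, 15.8 and 13.9 TPM, and the lowest were PECAM1 at 0.16, 0.01 and 0 TPM and MYH11 at 0.04, 0.08 and 0.20 TPM.

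Immediate early genes, the first to be transcribed after a stimulus and a class to which CCN1 belongs differed between the libraries. Of 13 tested genes 5 were called, against 1.59% of all genes, and 10 were highest in replicate 3, against 33.7% of all genes. JUN had 13.5, 49.4 and 101 TPM in replicates 1, 2 and 3 (adjusted p = 7.13e-08 in edgeR), FOS 16.4, 35.5 and 87.4 (1.85e-05), FOSB 0.38, 2.45 and 9.07 (8.19e-07), EGR1 21.0, 27.6 and 87.3 (3.66e-05) and EGR2 0.31, 0.37 and 1.39 (0.0331). CCN1, ANKRD1 and the coactivator gene WWTR1 shared with JUN, FOS and FOSB the order of the libraries, lowest in replicate 1 and highest in replicate 3. In log2 CPM, EGR1, IER3 and DUSP1 of the same list had that order too. So did genes of other lists, among them TGFBI, SKIL, LATS1, TAOK1, ASAP1, MRTFB, MAP2, TFAP2A and PDGFRA. The share of all genes with this order was not counted, and ANKRD1 rests on 2, 10 and 23 counts. The most abundant genes of the list were not called, with IER3 at 53.5, 73.7 and 79.4 TPM and IER2 at 59.2, 61.3 and 83.5, and EGR3 and KLF2 were at 0.22 ± 0.24 and 0.073 ± 0.040 TPM. Without replicate 3, 1 of the 5 calls was left, that of JUN, and without replicate 2 there were 4 calls. EGR2 was also not called without the low-count filter (adjusted p = 0.189).

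**Figure D4:**
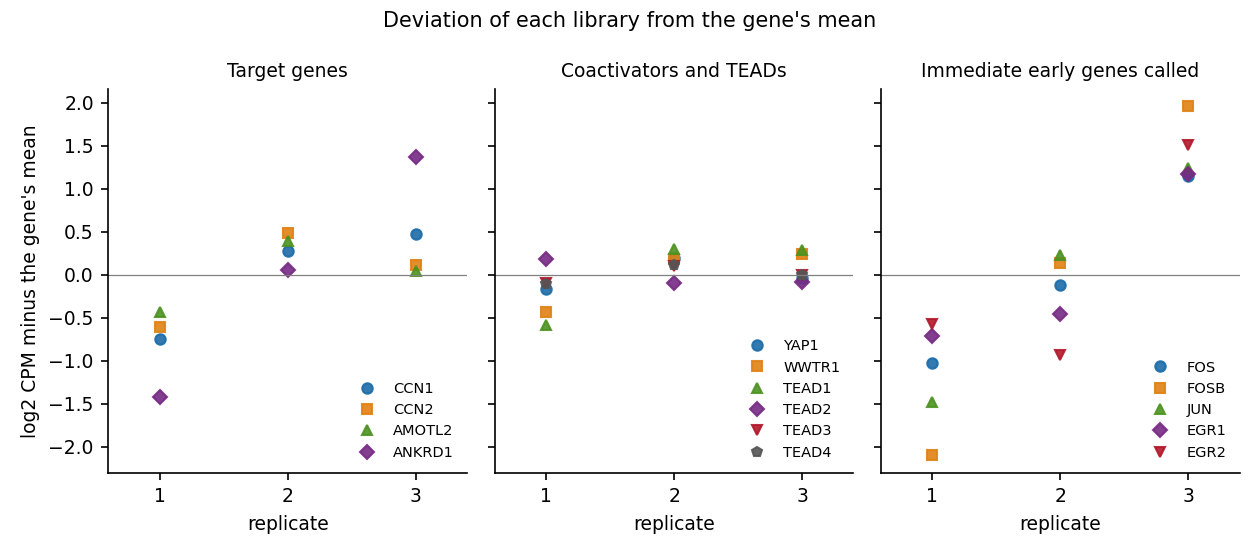
Log2 CPM of each library minus the gene's own mean over the 3 libraries, for the 4 target genes, the coactivators and TEAD genes, and the 5 immediate early genes called. The targets all lie below their mean in replicate 1, TEAD2 is the one coactivator or TEAD gene over its mean there, and the immediate early genes are all highest in replicate 3.

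Of 9 known targets of TGF-beta signalling, a pathway whose receptor SB431542 inhibits and which is known to induce CCN2, 6 were detected and 2 were called, against 1.59% of all genes. The thrombospondin gene THBS1 had 1.93, 10.9 and 6.24 TPM (adjusted p = 9.21e-05 in edgeR) and COL1A1 4.62, 18.3 and 12.9 (0.00966). TGFBI was the highest at 87.0, 155 and 211 TPM, SKIL followed COL1A1 at 5.46, 8.94 and 11.9, and LTBP2 was the lowest at 0.50, 0.53 and 0.46. THBS1 was not called without replicate 1 or 2 (adjusted p = 0.0872 and 0.325), nor COL1A1 without replicate 2 (1.00). Replicate 1 was the lowest library for 7 of the 9, against 41.1% of all genes. TGFBI was called with the length trend removed (adjusted p = 0.00768 in edgeR).

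The genes whose profile over the 3 libraries was most like the mean profile of the 4 targets were sought among 9193 tested genes of mean TPM at least 10. Likeness was the Euclidean distance between centred log2 CPM, which with 3 libraries has only 2 degrees of freedom. The length trend was not removed for this search. The nearest were DOCK10 at a distance of 0.0037, RIF1 at 0.014, ZNF462 at 0.022, CHD6 at 0.024 and MRTFB at 0.025. MRTFB had effective lengths of 7930, 6733 and 6825 bases in replicates 1, 2 and 3. Its replicate 1 lay -1.19 from the others, or -0.59 with the length trend removed. The part of transcript length in this likeness was not tested. Each target is part of the mean profile, so its own distance does not compare evenly with those of the genes searched. CCN1 itself lay at 0.064, with 19 of the genes searched at least as near, CCN2 at 0.47, AMOTL2 at 0.59 and ANKRD1 at 1.09, and 577 genes lay within 0.5. This order rests on ANKRD1, whose 2, 10 and 23 counts set much of the mean profile. With the profile of CCN1, CCN2 and AMOTL2 alone, which was highest in replicate 2 and not in replicate 3, 0 of these 5 genes stayed among the 5 nearest, and 1488 genes lay within 0.5. The nearest were then TMEM200B at 0.0072, IL6ST at 0.017, LTBP1 at 0.019, SASH1 at 0.034 and ADAMTS9 at 0.034. CCN2, AMOTL2 and CCN1, again part of the profile, lay at 0.14, 0.23 and 0.32.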

How the data were processed

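Messenger RNA of 3 wild-type pNPC replicates was analysed as a single group. Per the labels, RNA was taken with RNeasy columns, selected by poly(A) tail, and made into libraries with a NEBNext Ultra II DNA kit. Among the tools in the submitters' processing notes are RSEM 1.3.1, STAR 2.7.11a and Trim Galore 0.6.10, and the build there is GRCh38, without what each was used for. No source used here names an annotation release.

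The deposited tables, per the file headers, hold the columns of an RSEM gene table. The deposited expected count estimates the reads of a gene and carries no normalization by the authors. Of values above 0, at least 69.1% in each library were exact whole numbers. Their TPM values, made by the authors, divide by effective length and share 1 total. Deposited FPKM values served as an alternative. Deposited length and effective length values, entered as a score, gave the length trend.

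Rounded expected counts entered edgeR 4.0.16 under R 4.3.3, with limma 3.58.1 loaded, using TMM scaling and filterByExpr, fitting only a mean per gene, and the deviance left at the trended dispersion was referred to a chi-square with 2 degrees of freedom, with Benjamini-Hochberg adjustment at 0.05. A quasi-likelihood contrast cannot be made in 1 group. The test was tested on simulated data. The common biological coefficient of variation was 22.6%. Differences of levels used log2(TPM + 1), a pseudocount of 1, which understates differences of low genes. ANKRD1, which failed the filter, has its log2 CPM from the fit without the filter. The length trend was a loess curve (span 0.4) of log2 CPM deviations on log2 effective length over genes with a mean of 50 counts or more. Alternatives used DESeq2 1.42.0, and the rest Python 3.11.15, numpy 2.4.6, pandas 2.3.3, scipy 1.17.1 and matplotlib 3.10.9.

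The members and the other gene lists, 16 in all, were chosen with earlier results of these data known. The rule for named genes takes all members, and from each other list up to 4 genes of highest and 2 of lowest mean TPM and every gene called, all other CCN genes and all VGLL genes. A few results that this rule names are not reported here. Marker lists for neural progenitors, mesenchyme, neural crest, neurons, vessel and smooth muscle, epithelium and pluripotency are given mainly as counts or sums. Gene coordinates and promoter windows are RefSeq's for GRCh38.p14, 1-based. Exon overlaps come from GENCODE release 29.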

Additional observations from a re-analysis of the deposited data

How the results depend on the processing

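The count of members called was 0 with DESeq2 size factors, with the DESeq2 dispersion trend, without a filter, with a common dispersion and without any 1 replicate, and 1 (CCN1) with the length trend removed. Over all genes, 271 calls became 95 to 117 when a replicate was left out, where fewer libraries were tested, and 246 (upper-quartile scaling) to 332 (common dispersion) under the other alternatives. By expected counts in place of TPM the mean TEAD shares were 30.1% for TEAD1, 45.7% for TEAD2 and 5.25% for TEAD4, as counts are not divided by length. Leaving out a replicate moved the TEAD2 share between 58.3% and 63.9% and the TEAD1 share between 8.70% and 12.2%. Without length scaling, in log2(CPM + 1), TEAD3 minus AMOTL2 was -0.022 in place of 0.54, and TEAD2 minus YAP1, which was within its spread, was -0.71 in place of 0.42. With the length trend removed, YAP1 in replicate 1 lay 0.031 from the other libraries in place of -0.24. The number of members detected was 9 under each alternative, and CCN1, CCN2 and AMOTL2 were lowest in replicate 1 with log2(TPM + 1), upper-quartile scaling, DESeq2 size factors and the length trend removed. ANKRD1, which was not tested in the filtered fits, was lowest there in the other fits. Leaving out replicate 2 or 3 in that count was added after seeing the data, as were the list counts without each replicate and the search for like genes without ANKRD1. Replicate 1 itself could not be left out of its own difference. No paired analysis was possible because there is only 1 group. Depth limits ANKRD1, with 2 to 23 counts.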

Other observations

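The epithelial keratin genes KRT8 and KRT18 stood at 65.6 ± 6.84 and 44.1 ± 7.42 TPM (SD, n = 3), while EPCAM was at 0.64, 0.93 and 0.35 TPM and KRT5 and KRT14 received no reads. Neural crest markers were detected in 10 of 10 cases, led by TFAP2B at 58.9 ± 7.14 TPM. For spread in edgeR 0 of them were called, against 1.59% of all genes (3 at an unadjusted p under 0.05, and 1 called once replicate 1 was left out). The NOTCH targets HES1 and HES5 were called (adjusted p = 0.0161 and 0.00340 in edgeR) and, unlike CCN1, were highest in replicate 1, with HES1 at 35.5, 13.3 and 15.8 TPM and HES5 at 6.76, 0.72 and 5.66 TPM in replicates 1, 2 and 3. HES1 was not called without any 1 of the libraries, and HES5 not without replicate 2. With the length trend removed, the progenitor genes SOX2 and SOX1, highest in replicate 1, were also called (adjusted p = 0.00815 and 0.00727 in edgeR). In replicate 1 the median of the 9 tested progenitor markers lay 0.94 from the mean of the others, or 0.67 with the length trend removed. Of 6 pluripotency markers 2 were detected, LIN28A at 461, 260 and 256 TPM and DPPA4 at 18.6, 21.0 and 26.4, while POU5F1 was at 0.11, 0.08 and 0.14, and 0 were called (1 at an unadjusted p under 0.05 in edgeR). LIN28A was called with the length trend removed (adjusted p = 0.00238 in edgeR).

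The effective length that RSEM assigned to a gene differed between libraries for some members. For YAP1 it was 4678, 3891 and 3854 bases in replicates 1, 2 and 3, and replicate 1 lay -0.64 from the others in log2(TPM + 1) and -0.24 in log2 CPM. For TEAD1 it was 8914, 7231 and 7808 bases, and for AMOTL2 3952, 4275 and 3962 bases.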
